A study of Mus musculus with 5 samples.

Results

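The Mediator complex was followed through 33 genes: those whose single annotated symbol is Med and a number, Med12l and Med13l with them, and Cdk8, Cdk19 and Ccnc. They were all the genes that this naming rule found among 22180 genes with a single annotated symbol on the arrays. Each gene was represented by its brightest probe set. RNA came from fresh hearts of male mice on a C57BL/6 background aged 12 weeks. There were 2 Akita arrays, numbered 1 and 3, and 3 wild type arrays, numbered 3, 4 and 5. Ins2, an insulin gene, is mutated in the Akita mice, in the heterozygous state per the series' design, and the labels call them a model of type 1 diabetes. The mutation is carried throughout the animal, and Ins2 is expressed mainly in pancreatic beta cells. The labels do not say whether each array is a separate animal, and the spread behind every p-value may therefore be technical in part.

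Mediator is the large assembly that carries signals from gene-specific transcription factors to RNA polymerase II at the promoter. Its head and middle modules contact the polymerase, its tail receives activators, Med14 runs through the core as a scaffold, and a kinase module built from Cdk8 or Cdk19, cyclin C, Med12 and Med13 docks reversibly and can keep the polymerase away. In the mouse heart, loss of Med1 or Med12 from cardiomyocytes and a point mutation of Med30 are known to cause cardiomyopathy, and Med13 is a known target of the cardiac microRNA miR-208a. Med27, Med28, Med29 and Med30 are assigned to the head by some structures and to the tail by others, and are treated here as a group at the head and tail boundary.

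Of the 33 genes, 27 (81.8%) lay lower in Akita than in wild type hearts and 6 lay higher, but none passed the test across all genes. A difference below 0 was found in 56.5% of all genes tested. The median log2 difference (Akita minus wild type) was -0.16 over the Mediator genes, against -0.03 over the 15528 genes tested. Med29 and Med27 of the head and tail boundary, Med25 of the tail and Med12 of the kinase module had the lowest differences, between -0.62 and -0.52. Med30, Cdk19, Med24, Med17, Med6 and Med21 were the genes that lay higher, by 0.08 or less. The number of genes lower depended on scaling. It was 33 with each array centred on its median over all probe sets. It was 23 with quantile normalization again and 22 with arrays centred on the median of the genes tested. Among these scalings, the 6 genes named lay lower only with each array centred on its median over all probe sets.

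The test was limma on log2 signals, with p-values adjusted by Benjamini-Hochberg across the whole table. It called 0 of the 33 genes at an adjusted p of 0.05, where 0.328% of all genes tested were called, and 9 at an unadjusted p under 0.05, all of them lower. Over all genes tested, 9.49% were lower at that unadjusted level and 4.13% higher, so that the share in Mediator was 27.3% against 9.49%. In 15 Mediator genes both Akita arrays lay below all 3 wild type arrays, or 45.5%, where this held for 19.9% of all genes tested. In 0 Mediator genes both Akita arrays lay above them, against 9.89%. Brighter genes lay lower more often, and 32 of the 33 were past the median brightness of the array's genes. Among the 11092 genes past it, 12.2% were lower at the unadjusted level, 25.4% had both Akita arrays below all wild type arrays and 65.7% had a difference below 0. The median log2 difference of these brighter genes was -0.072, against -0.165 over the 32 Mediator genes among them. These shares and medians describe the list and are no test of it.

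**Figure D1:**
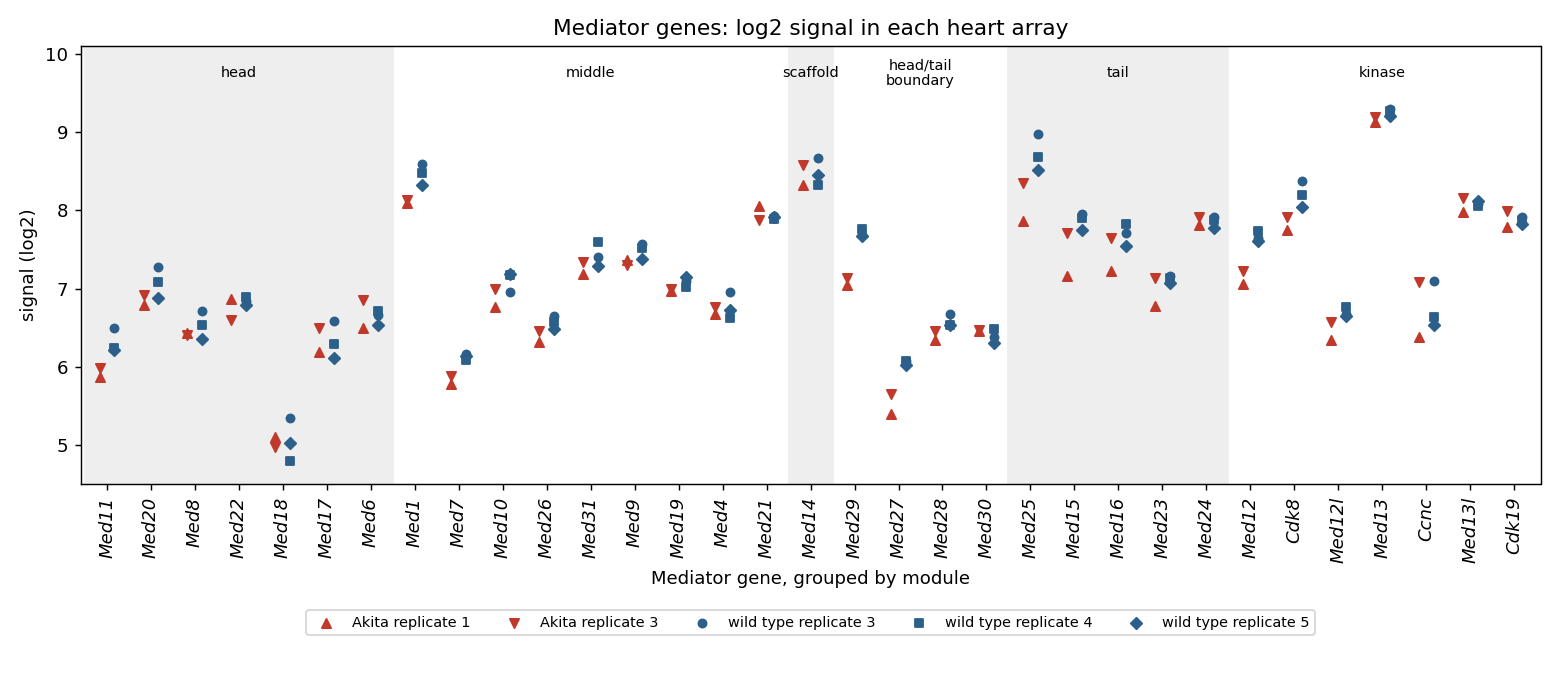
Log2 signal (y axis) of each of the 33 Mediator genes (x axis, grouped by module) in 2 Akita arrays (red) and 3 wild type arrays (blue). Levels of different genes rest on different probe sets and are not compared. In Med29, Med27 and Med12 both Akita points lie under all wild type points with a gap, while in Med13l, Cdk19, Med24 and Ccnc the groups overlap.

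Med29, Med12 and Med27 had the smallest p of the 33, and the bases before their transcription starts are shown because these members lay lower together and kept an unadjusted p under 0.05 with any single array left out. Sequences are from RefSeq, build GRCm38.p6, on the gene's strand, 250 bases ending just before the annotated start. Where several starts were listed for a gene, the most upstream was used. Capitals mark matches, on either strand, to the motifs named after them.
Med29, chr7:28392691-28392940, minus strand: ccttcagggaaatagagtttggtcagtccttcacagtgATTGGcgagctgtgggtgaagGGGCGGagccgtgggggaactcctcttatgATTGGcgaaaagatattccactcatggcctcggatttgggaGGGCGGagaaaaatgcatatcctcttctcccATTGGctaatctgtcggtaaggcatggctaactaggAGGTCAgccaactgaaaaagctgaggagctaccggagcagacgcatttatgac
Med12, chrX:101273841-101274090, plus strand: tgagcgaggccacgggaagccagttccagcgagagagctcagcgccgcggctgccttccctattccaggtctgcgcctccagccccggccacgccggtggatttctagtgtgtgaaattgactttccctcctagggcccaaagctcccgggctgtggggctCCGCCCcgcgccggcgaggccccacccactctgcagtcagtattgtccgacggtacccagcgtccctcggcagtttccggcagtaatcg
Med27, chr2:29346560-29346809, plus strand: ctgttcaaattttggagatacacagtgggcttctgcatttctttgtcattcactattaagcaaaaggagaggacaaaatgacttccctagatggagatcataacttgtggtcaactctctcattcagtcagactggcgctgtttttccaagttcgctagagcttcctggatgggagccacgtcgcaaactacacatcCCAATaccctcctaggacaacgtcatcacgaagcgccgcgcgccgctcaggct
The motifs searched were the GC box GGGCGG, the CCAAT box CCAAT, the nuclear receptor site AGGTCA, the E-box CACGTG, the TATA box TATAAA, the ETS core CCGGAAGT and the cAMP response element TGACGTCA. No motif contains another. The Med29 bases hold 3 CCAAT boxes, 2 GC boxes and 1 nuclear receptor site, those of Med12 hold 1 GC box, and those of Med27 hold 1 CCAAT box, so no motif searched was in all 3 stretches.

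Promoters of 28 of the 33 genes could be read, in windows of 300 bases with 250 before the start and 50 after it. Each gene had 1 window, at its most upstream listed start. The GC box was present in 18 of them (64.3%), against 58.5% of 12072 promoters of genes tested and 35.9% of all 27025 promoters. The CCAAT box was in 39.3% of the Mediator promoters, 37.8% of those of genes tested and 38.0% of all, and the nuclear receptor site in 21.4%, 12.8% and 16.0%. In the same order, the E-box was in 14.3%, 9.71% and 7.24%, and the TATA box in 10.7%, 8.34% and 14.2%. The ETS core was in 10.7%, 6.81% and 3.99%, which is 3 Mediator promoters, and the cAMP response element in 3.57%, 2.91% and 1.85%, which is 1. The median GC content of the windows was 57.8% in Mediator genes and 60.0% in genes tested.

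The head and tail boundary group held 2 of the 3 genes with the smallest p. Med29 (the counterpart of yeast Med2) had log2 signals of 7.04 and 7.13 in the Akita arrays, against 7.69, 7.76 and 7.67 in the wild type arrays. Both Akita values lay well under the lowest wild type value, and each group was tight. The difference was -0.62 (SE 0.11, limma adjusted p = 0.0919), or 65.0% of the wild type signal with an interval of 0.55 to 0.77 times (95%). Med27 (the counterpart of yeast Med3) stood at 5.40 and 5.65 in Akita, against 6.08, 6.07 and 6.02 in wild type hearts. The groups did not overlap and the wild type arrays were close together (difference -0.53, SE 0.12, adjusted p = 0.158). Its second probe set, at 2.52 and 2.52 in Akita against 2.56, 2.68 and 2.76 in wild type, was under the limit of log2 4.06 set for dim genes.

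The other members of that group lay closer to wild type. Med28 had 6.34 and 6.46 in Akita and 6.67, 6.54 and 6.53 in wild type hearts, without overlap but with a difference of -0.18 (SE 0.11, adjusted p = 0.532). Med30, the subunit whose mutation causes cardiomyopathy in mice, had the highest difference of all 33. It stood at 6.46 and 6.47 in Akita, against 6.38, 6.48 and 6.31 in wild type hearts. Both Akita values lay within the wild type range (difference 0.08, SE 0.11, adjusted p = 0.813), with an interval from -0.18 to 0.33.

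The tail module, which receives activators, had 4 of 5 genes lower and a median of -0.25, and its size differed between the Akita arrays. Med25, which binds acidic activators, had 7.86 and 8.35 in Akita, against 8.98, 8.68 and 8.51 in wild type hearts. The groups did not overlap, but both spread widely, and the difference of -0.62 (SE 0.19) had an adjusted p of 0.249. Med15, the contact of the SREBP lipid regulators and of SMAD factors, had 7.16 and 7.71 in Akita, against 7.95, 7.90 and 7.75 in wild type hearts. Akita replicate 3 was just under the lowest wild type array, and the difference was -0.43 (SE 0.17, adjusted p = 0.343), or -0.16 without Akita replicate 1 and -0.71 without Akita replicate 3. Med16 (-0.25) and Med23 (-0.17), the contact of the growth factor-responsive factor Elk1, overlapped between groups, and Med24 differed by 0.01.

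The kinase module was uneven: Med12 and Cdk8 lay lower, and Cdk19, Med13l and Ccnc had differences between -0.02 and 0.02. Med12, which activates the kinase, had 7.06 and 7.22 in Akita, against 7.64, 7.74 and 7.61 in wild type hearts. Both Akita arrays lay well under the wild type range (difference -0.52, SE 0.11, adjusted p = 0.143), at 69.6% of the wild type signal. Cdk8, the kinase itself, had 7.75 and 7.92 in Akita, against 8.37, 8.19 and 8.04 in wild type hearts (difference -0.37, SE 0.14, adjusted p = 0.313). The groups did not overlap, and Akita replicate 3 lay close to wild type replicate 5. Cdk19, its paralogue that takes the same place in the module, had 7.78 and 7.99 in Akita, against 7.91, 7.87 and 7.83 in wild type hearts. Its Akita values lay on both sides of the wild type arrays (difference 0.02, SE 0.12, adjusted p = 0.971).

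Cyclin C, the partner of both kinases, varied most within groups. Ccnc had 6.38 and 7.08 in Akita, against 7.09, 6.63 and 6.54 in wild type hearts. The difference of -0.02 (SE 0.24, adjusted p = 0.978) had an interval from -0.59 to 0.54 and was -0.37 or 0.33 with only Akita replicate 1 or 3 kept. Med13, which links the kinase to the core complex, had 9.13 and 9.19 in Akita, against 9.30, 9.27 and 9.21 in wild type hearts. Its groups did not overlap, yet their nearest values almost touched and the difference was -0.10 (SE 0.11, adjusted p = 0.722). The related Med13l differed by -0.02 (adjusted p = 0.966) and Med12l by -0.24 (adjusted p = 0.438). A probe set shared by Med12l and Igsf10 ran the other way, at 4.77 and 5.54 in Akita against 4.74, 4.76 and 4.37 in wild type, and was assigned to neither gene.

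Within each array, the signal of Cdk8 was also set against that of Cdk19 to see whether the paralogues changed unequally. The log2 signal of Cdk8 minus that of Cdk19 was -0.03 and -0.07 in Akita arrays and 0.46, 0.32 and 0.21 in wild type arrays, a shift of -0.38 without overlap. Med12 minus Med12l was 0.72 and 0.65 in Akita and 0.97, 0.98 and 0.96 in wild type arrays, a shift of -0.28 without overlap. Med13 minus Med13l was 1.15 and 1.03 in Akita and 1.22, 1.21 and 1.09 in wild type arrays, which overlapped. These differences are unchanged by centring whole arrays. They were chosen after the values were seen and were not tested, and their level says nothing of which paralogue is more abundant.

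**Figure D2:**
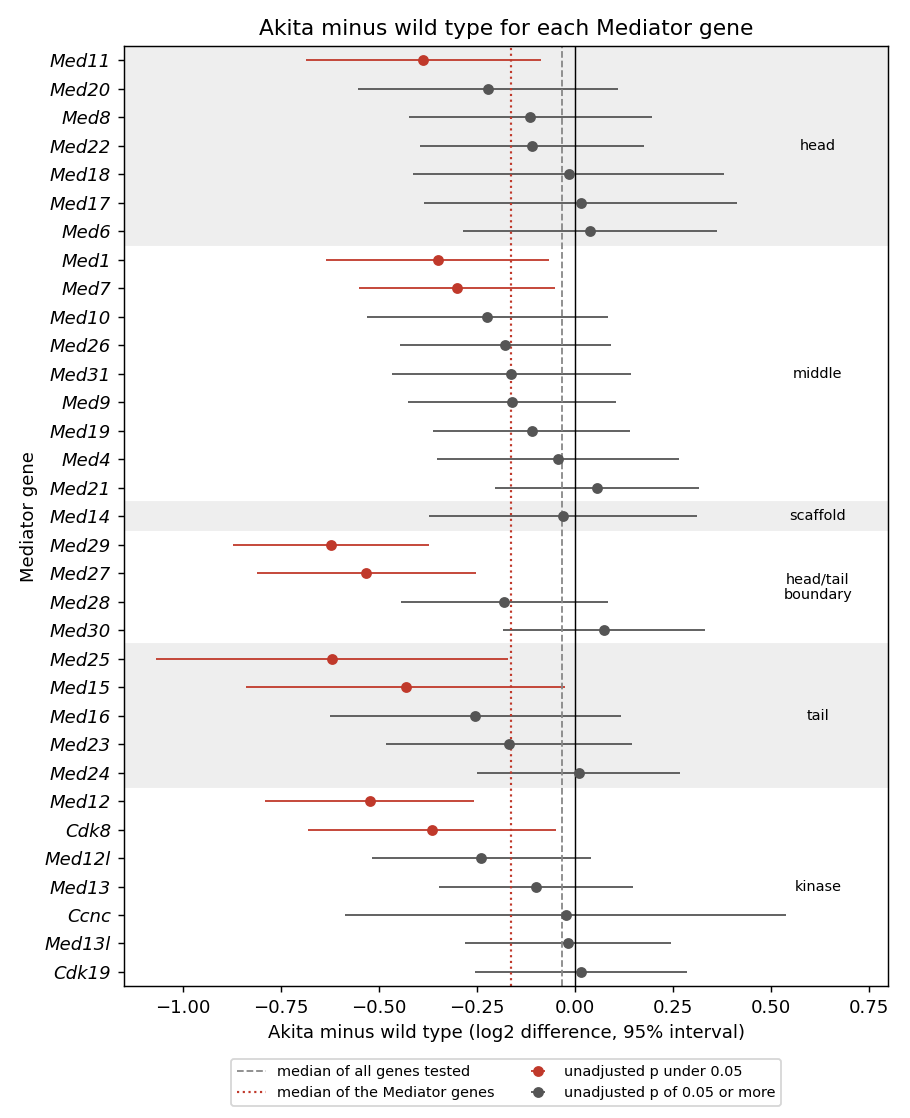
Akita minus wild type for each Mediator gene (y axis, grouped by module) as a log2 difference with its 95% limma interval (x axis). The 9 red genes had an unadjusted p under 0.05, all of them left of 0, and the dotted and dashed lines mark the medians of the Mediator genes (-0.16) and of all genes tested (-0.03).

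In the middle module, 8 of 9 genes lay lower, with a median of -0.16 and differences from -0.35 to 0.06. Med1, the main contact of nuclear receptors such as PPARs and thyroid hormone receptors, had 8.09 and 8.13 in Akita, against 8.59, 8.47 and 8.32 in wild type hearts. The Akita arrays were close together and below all wild type arrays (difference -0.35, SE 0.12, adjusted p = 0.295). Med7, which forms the hinge of the module with Med21, had 5.78 and 5.88 in Akita, against 6.16, 6.09 and 6.14 in wild type hearts (difference -0.30, SE 0.11, adjusted p = 0.301). A dimmer second probe set of Med7 differed by -0.11. Its hinge partner Med21 had 8.06 and 7.88 in Akita, against 7.93, 7.89 and 7.92 in wild type hearts. Akita replicate 1 lay above and replicate 3 below the wild type arrays (difference 0.06, SE 0.11, adjusted p = 0.869).

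Of the other middle genes, Med10 (-0.22), Med26, which recruits elongation factors (-0.18), Med31 (-0.16), Med9 (-0.16), Med19 (-0.11) and Med4 (-0.04) had adjusted p from 0.505 to 0.920. In Med26, Med9 and Med19 both Akita arrays still lay below all wild type arrays. A dimmer second probe set of Med10 differed by 0.18, against -0.22 for the one used, and one of Med26 by -0.01. Med14, the scaffold, had 8.32 and 8.58 in Akita, against 8.67, 8.32 and 8.45 in wild type hearts. The groups overlapped fully (difference -0.03, SE 0.15, adjusted p = 0.951), with an interval from -0.37 to 0.31.

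In the head module, 5 of 7 genes lay lower and the median was -0.11. Med11, a small subunit that pairs with Med22, had 5.87 and 5.99 in Akita, against 6.49, 6.24 and 6.22 in wild type hearts. It was the head gene whose groups did not overlap (difference -0.39, SE 0.13, adjusted p = 0.280). Med22 itself had 6.86 and 6.60 in Akita, against 6.84, 6.89 and 6.79 in wild type hearts (difference -0.11, adjusted p = 0.737). Med20 (-0.22) and Med8 (-0.11) lay lower with overlap, and Med18, the partner of Med20, differed by -0.02. Med17, the architectural centre of the head, had 6.19 and 6.50 in Akita, against 6.59, 6.29 and 6.11 in wild type hearts. Akita and wild type arrays were interleaved (difference 0.02, SE 0.17, adjusted p = 0.979). Med6 had 6.50 and 6.85 in Akita, against 6.66, 6.71 and 6.54 in wild type hearts, with the Akita arrays on either side of the wild type range (difference 0.04).

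The modules differed in how far the individual arrays lay from wild type. As the median deviation of a module's genes from their wild type means, the boundary group stood at -0.45 and -0.26 in Akita replicates 1 and 3, and the wild type arrays between -0.04 and 0.03. The tail stood at -0.46 and -0.04, and the kinase module at -0.35 and -0.07, with the wild type arrays at -0.12 to 0.06 and -0.05 to 0.04. So both modules were well below wild type in 1 of the 2 Akita arrays and near its edge or within its range in the other. The middle stood at -0.24 and -0.10, and the head at -0.14 and -0.12, where wild type replicate 3 was the array that stood out in the head, at 0.18. Over all Mediator genes the medians were -0.24 and -0.10, against 0.04, 0.00 and -0.05 in wild type replicates 3, 4 and 5. Akita replicate 1 lay under Akita replicate 3 in 28 of the 33 genes (84.8%), where this held for 58.5% of all genes tested. It was not particular to Mediator. Among the partner genes described below it held for 22 of 26 activators and coactivators and 13 of 17 general transcription factors. It also held for 14 of 19 pause release and elongation factors and 7 of 12 RNA polymerase II subunits. The wild type deviations are taken from a mean that includes the array itself, which makes them smaller.

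**Figure D3:**
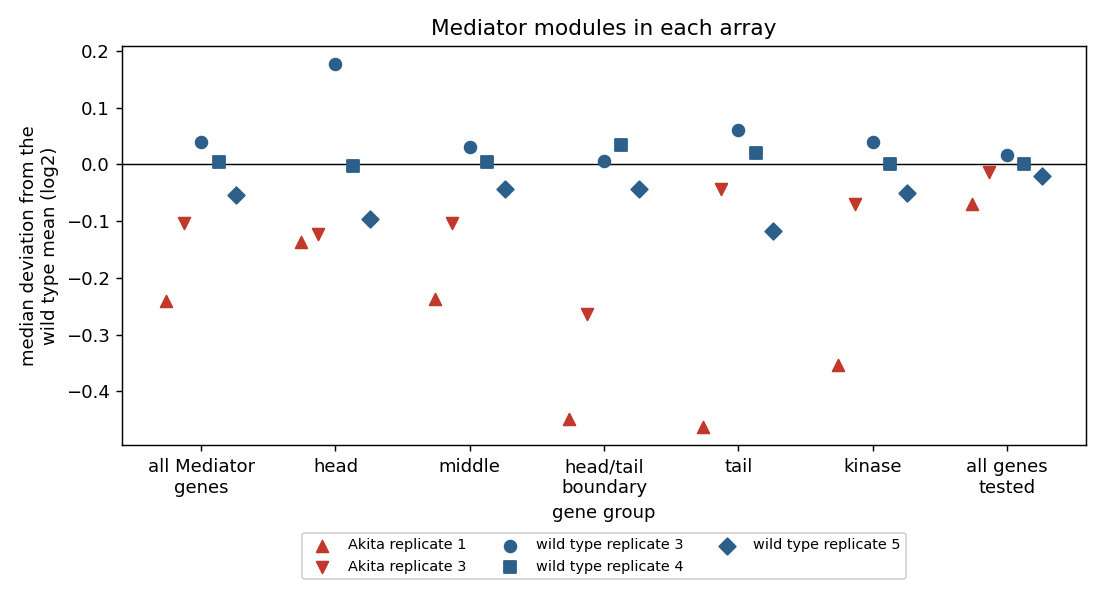
Median deviation from the wild type mean (y axis, log2) over the genes of each Mediator module, all Mediator genes and all genes tested (x axis), 1 point per array with Akita in red and wild type in blue. Both Akita points lie below the wild type points in every Mediator group plotted but the tail, where Akita replicate 3 lies at -0.04 among them, while over all genes tested they stood at -0.07 and -0.01.

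Leaving out an array changed which members were past the unadjusted level. Med29, Med12 and Med27 remained so without any one of the 5 arrays. The 9 genes became 4, 5 and 8 without wild type replicate 3, 4 and 5. No count is given without an Akita array, where a single array stands for the group. All 9 differences were smaller in size without Akita replicate 1 than without Akita replicate 3. They ranged from a small gap in Med1 (-0.33 and -0.37) to a wide one in Med15 (-0.16 and -0.71). The share of all genes tested past that level was not counted with an array left out. These counts therefore do not separate a change in Mediator from one across the whole table. The median over the 33 genes was -0.10 without Akita replicate 1 and -0.24 without Akita replicate 3. It also depended on how the arrays were scaled: it was -0.25 with each array centred on its median over all probe sets, -0.09 with quantile normalization again and -0.07 with arrays centred on the median of the genes tested. The median of all genes tested under these was -0.12, -0.03 and 0.06, so the Mediator median stayed 0.06 to 0.13 below it.

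**Figure D4:**
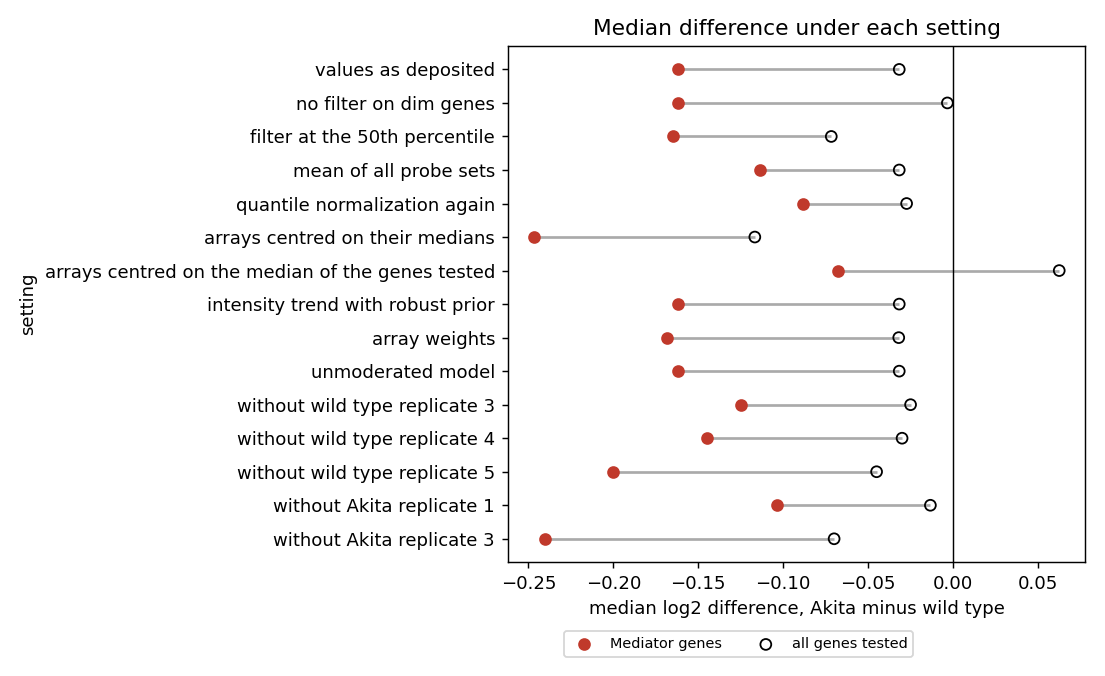
Median log2 difference, Akita minus wild type (x axis), over the Mediator genes (red) and all genes tested (open circles) under each setting (y axis). The Mediator median lies between -0.25 and -0.07 and to the left of the median of all genes tested in each.

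Genomic span, wild type signal and the GC content of the promoter were set against the differences. Across the 33 genes, the log2 difference had a Pearson correlation of -0.00 and a Spearman correlation of 0.01 with the logarithm of the gene's genomic span, and of -0.18 and -0.08 with the wild type signal. Over all genes tested the correlations with the wild type signal were -0.28 and -0.34. With the GC content of the promoter window they were 0.24 and 0.27 over the 28 Mediator genes that had one, against -0.14 and -0.11 over 12072 genes tested. These are across genes on the same 5 arrays, and genes are not independent replicates. The wild type signal is itself subtracted in each difference, so a negative correlation with it arises in part by construction. The spans ran from 1.81 kb in Med11 to 313 kb in Med12l, with a median of 18.0 kb, against 20.3 kb over the genes tested that had a span.

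Some Mediator genes start close to another gene that runs the opposite way. In 6 of the 28 genes with a promoter entry such a neighbour started within 1000 bases upstream. Paf1, a subunit of an elongation complex, starts 306 bases from Med29 and had 8.70 and 8.62 in Akita, against 8.77, 8.84 and 8.87 in wild type hearts. It lay below all wild type arrays too, by less than Med29 (difference -0.17, SE 0.11, adjusted p = 0.542). Bysl, 93 bases from Med20, differed by -0.32 (adjusted p = 0.420), Tmx2, 228 bases from Med19, by -0.14, Rpl7a, 165 bases from Med22, by -0.04, and Gm14634, 305 bases from Med14, by -0.19. The neighbour of Med9, Med9os, was not among the genes tested.

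The microRNAs known to act on Med13 in the mouse heart are encoded in introns of myosin genes, and their mature sequences are shown because they share bases of the seed that pairs with targets. The sequences are from RefSeq, build GRCm38.p6, with the seed (bases 2 to 8) in capitals.
miR-208a-3p: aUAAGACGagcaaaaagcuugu
miR-208b-3p: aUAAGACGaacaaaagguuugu
miR-499-5p: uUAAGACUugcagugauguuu
The seed is the same in miR-208a-3p and miR-208b-3p. The probe set of the Mir208a locus, which cannot be read as a level of the mature microRNA, had 3.98 and 2.74 in Akita, against 4.83, 5.14 and 4.54 in wild type hearts. Both Akita values lay below the wild type arrays and below log2 4.06. The probe set passed that limit through the wild type arrays alone, so no difference or test is given for it. Its host gene Myh6, the adult myosin heavy chain, had 12.90 and 12.92 in Akita, against 12.83, 12.95 and 12.95 in wild type hearts. Mir208b and Mir499 were under the limit for dim genes in all arrays, and Myh7b, the host of Mir499, differed by -0.43 (SE 0.16, adjusted p = 0.317). Myh7, the other myosin host gene listed, differed the opposite way, by 0.43 (SE 0.23, limma adjusted p = 0.467). Its groups overlapped: Akita replicate 1 lay within the wild type range and Akita replicate 3 above it. The thyroid hormone receptors Thra and Thrb, which act through Mediator, differed by -0.06 and -0.04.

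Partners of Mediator in transcription are described by the same counts, beside the shares over all genes tested (56.5% below 0 and 9.49% lower at an unadjusted p under 0.05) and over the brighter genes (65.7% and 12.2%). Of 19 measured factors of pause release and elongation, 18 (94.7%) lay lower (median -0.15), 4 of them (21.1%) at an unadjusted p under 0.05 and 0 at an adjusted p under 0.05 by limma. The 3 of smallest p were Ccnk, the cyclin of Cdk12 and Cdk13, at 8.71 and 8.69 in Akita against 8.96, 9.20 and 9.01 in wild type hearts, Ccnt2 (-0.33), a cyclin of the pause-release kinase Cdk9, and Nelfb (-0.38), of the pausing factor. Of 12 RNA polymerase II subunits, 10 (83.3%) lay lower, with a median of -0.04, close to that of all genes. They were led by Polr2e, a subunit shared by the nuclear polymerases (difference -0.41, SE 0.11, limma adjusted p = 0.205). Polr2e had 8.73 and 8.61 in Akita against 9.13, 9.10 and 9.02 in wild type hearts, and Polr2f differed by -0.21. Polr2l had 4.55 and 5.53 in Akita against 6.18, 6.06 and 5.37 in wild type hearts. Its groups spread widely and overlapped (difference -0.83, SE 0.33, limma adjusted p = 0.334). At the unadjusted level 2 of the subunits (16.7%) were lower, and 0 passed the adjusted test.

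The general transcription factors lay lower in 10 of 17 cases (58.8%, median -0.07), close to the share of all genes tested. Of them 1 (5.88%) was at the unadjusted level, a smaller share than among all genes: the TFIIH helicase Ercc3 (-0.35), followed by Tbp, the TATA-binding protein (-0.28), and Gtf2h4 (-0.26). Of 26 activators and coactivators that contact Mediator, 20 (76.9%) lay lower (median -0.10) and 2 (7.69%) were at the unadjusted level, again a smaller share than among all genes: Ncoa6, a nuclear receptor coactivator (difference -0.46, SE 0.13, adjusted p = 0.215), and Rxrb (-0.38), a retinoid X receptor, with Rxra at -0.24. Cohesin and its loader, which join enhancers to promoters together with Mediator, had 8 of 10 genes higher (median 0.055), 0 of them at the unadjusted level or at an adjusted p under 0.05 by limma. Their median lay above wild type in Akita replicate 3 but not in replicate 1. As a median deviation from the wild type mean it was -0.065 in Akita replicate 1 and 0.19 in Akita replicate 3. Replicate 1 lay under replicate 3 in all 10 genes, where this held for 58.5% of all genes tested. In 2 of the 10 both Akita arrays lay above all wild type arrays, where this held for 9.89% of all genes tested. Smc3 had 8.98 and 9.08 in Akita against 8.87, 8.63 and 8.75 in wild type hearts (difference 0.28, SE 0.12, adjusted p = 0.367), while Smc1a differed by 0.26 and the loader subunit Mau2 by -0.23. In these partner lists too, 0 genes passed the adjusted test.

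Cardiomyocyte markers were bright in all arrays, as the heart label implies, but marker signals of several other cell types were not even between arrays. In whole hearts, fewer cells of a type and less RNA per cell cannot be told apart. The mean log2 signal of 5 cardiomyocyte markers was 12.73 and 12.72 in Akita and 12.78 to 12.83 in wild type arrays. That of 5 atrial myocyte markers was 7.75 and 10.76 in Akita replicates 1 and 3, against 7.93 to 8.19 in wild type arrays, and all 5 were higher in replicate 3 than in replicate 1. Replicate 1 did not lie to one side of wild type: Bmp10 had 5.71 and 10.83 in Akita, against 4.63, 4.64 and 5.18 in wild type hearts, while Sln had 6.71 and 10.85, against 7.74, 8.13 and 7.95, and Myl7 had 6.55 and 10.36, against 7.83, 8.10 and 8.08. Fibroblast markers (5 genes) had 8.98 and 9.46 in Akita, against 8.81 to 8.93, and adipocyte markers (3 of 5 genes past the limit, Adipoq and Lep below it) had 5.28 and 6.07, against 4.72 to 4.96. Macrophage markers (4 genes) had 6.93 and 7.31, against 7.36 to 7.53. Their differences were uneven, with Cd68 at -0.85 (limma adjusted p = 0.0773), Adgre1 at -0.24, Csf1r at -0.17 and Mrc1 at 0.00, and the last 2 overlapped between groups. The part of these differences in the Mediator values was not tested. The median signal of an array was 4.71 and 4.60 in Akita and 4.53 to 4.62 in wild type.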

How the data were processed

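Per the labels' protocols, heart RNA was biotin-labelled for whole-transcript arrays. The table deposited by the authors holds log2 values between 1.27 and 13.66, and its log base was inferred from that range. The submitters' processing notes name Affymetrix Expression Console, with version and normalization not given in the sources used here. Any normalization between arrays would hide a shift common to most transcripts. Background left in the signal would make differences of dim genes too small.

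Of 41345 probe sets, 23521 had exactly 1 gene symbol in the platform annotation, 1814 had several and 16010 were not listed. Each of the 22180 genes was represented by the probe set of highest mean over the 5 arrays. The Mediator genes had 38 such probe sets, and 5 genes had more than 1. A limit at the 30th percentile of mean signal (log2 4.06) removed dim genes; all 33 Mediator genes passed it. The remaining 15528 genes were fitted in limma 3.58.1 (R 4.3.3; eBayes, two-sided p, Benjamini-Hochberg), with 3 residual and 4.38 prior degrees of freedom and a median SD of 0.144 within groups. The procedure was tested on simulated data. Values in every array are given for members past an unadjusted p of 0.05 without overlap, the highest and lowest differences and 8 members named for their known roles. Other members printed per array, and the paralogue differences, were picked once the data had been seen. The members and lists were chosen with earlier results of these data known. The labels name no batch. Precision is limited by having 5 arrays. Some of the partner and marker genes listed were not analysed here. Further marker lists had median differences of 0.14 (endothelium, 5 genes), 0.04 (smooth muscle, 3 genes) and -0.05 (T and B cells, 2 genes), and Slc4a1, of red cells, differed by 0.23. Alternatives were other filters on dim genes, the mean of all probe sets, other scalings, other variance models, an adjusted threshold of 0.1 and each array left out. Plots used matplotlib 3.10.9 and tables pandas 2.3.3 under Python 3.11.15.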

Additional observations from a re-analysis of the deposited data

How the results depend on the processing

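No paired analysis was possible because the labels of the groups share a single replicate number, 3. Of the Mediator genes, 0 passed the adjusted threshold in the main analysis and 1, Med29, with an intensity trend and a robust prior (adjusted p = 0.0289) or at an adjusted threshold of 0.1; its adjusted p ran up to 0.408 over the alternatives. The median over the Mediator genes stayed below 0: -0.16 as reported, -0.11 with the mean of all probe sets, -0.088 with quantile normalization again, -0.25 with arrays centred on their medians, -0.0675 with arrays centred on the median of the genes tested (added after seeing the data), and -0.24 to -0.10 with an array left out. The calls over all genes numbered 51, and 86 with no filter, 84 and 30 with the 2 centrings, 197 with the intensity trend, 28 with array weights, 0 with the unmoderated model (where 6 Mediator genes were at an unadjusted p under 0.05), 96 at a threshold of 0.1, and 9 to 44 with an array left out. Of the 33 genes, 20 kept their direction in all these alternatives, among them the 9 at an unadjusted p under 0.05. The other 13 had differences of at most 0.17 in size and changed sign somewhere. With quantile normalization again Ccnc stood at 0.031, Med13l at 0.054, Med14 at 0.0275 and Med4 at 0.028. With arrays centred on their medians, Cdk19 and Med17 stood at -0.07, Med21 at -0.028, Med24 at -0.075, Med30 at -0.01 and Med6 at -0.047, so that all 33 lay lower. With arrays centred on the median of the genes tested, Ccnc stood at 0.071, Med13l at 0.0775, Med14 at 0.064, Med18 at 0.079 and Med4 at 0.051. Med24 stood at -0.0275 with the mean of all probe sets, and with array weights Ccnc stood at 0.0039 and Med18 at 0.024. With an array left out, the differences ran from -0.37 to 0.33 in Ccnc, -0.09 to 0.12 in Cdk19, -0.11 to 0.073 in Med13l, -0.16 to 0.10 in Med14, -0.14 to 0.17 in Med17, -0.15 to 0.13 in Med18, -0.033 to 0.15 in Med21, -0.24 to 0.02 in Med22, -0.34 to 0.0067 in Med23, -0.04 to 0.06 in Med24, -0.12 to 0.05 in Med4 and -0.14 to 0.21 in Med6. Apart from the construction of each alternative, the cause was not tested. With an Akita array left out, the other was assumed to vary like the wild type arrays. Dim probe sets limit what Med18 and the second probe sets can show.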
